A study of Mus musculus with 6 samples.

Results

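The genes described here are 52 genes of DNA replication, nucleotide supply, homologous repair and their E2F control, read out of 19937 genes measured on arrays of mouse mammary organoids. They were taken from a list of named genes, each represented by the probe set annotated to that symbol alone, or by the one with the highest mean over the 6 arrays where there were several. All 52 were measured.

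Organoids, clumps of gland epithelium freed by enzymes, were prepared from age-matched female FVB mice of the ErbB3 DOX-KO genotype, in which doxycycline (DOX) induces loss of the neuregulin receptor gene Erbb3. They were kept in growth factor-reduced Matrigel, a basement membrane gel, for 14 days with 5 µM DOX (3 arrays) or without DOX (3 control arrays), each array holding 1 of 3 biological replicates, and whether each replicate is a different mouse is not stated. Both groups carry the same alleles, and no DOX-treated organoids without them are among the samples, so an effect of the drug and of Erbb3 loss cannot be told apart. The labels name neither the promoter that drives the inducible system nor the deleted exons. Values are log2 RMA (robust multi-array average) summaries, in which 1 unit is a 2-fold step, and the number of arrays limits their precision.

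Before S phase, the origin recognition complex, Cdc6 and Cdt1 load the ring-shaped MCM helicase onto DNA, and Cdc45 and the GINS complex then switch it on. Polymerases copy the DNA behind the helicase, on a sliding clamp and from nucleotides that ribonucleotide reductase and thymidylate synthase supply, and homologous repair rescues broken or stalled forks. Most of these genes are transcribed in waves by E2F factors at the border of G1 and S, so their RNA is abundant in dividing cells, in the mammary gland above all in pubertal ducts and in early pregnancy.

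DOX replicate 2 stood apart: its correlation with the other arrays across genes was 0.816 to 0.865, against at least 0.963 among the others, and its interquartile range was 1.67 log2 units against 3.02 to 3.33. Bright genes therefore read low on it and dim genes high, and each main result is given with and without it. Erbb3 did not check the labels, since its level was 10.36, 9.31 and 9.82 in DOX replicates 1, 2 and 3, against 9.78, 9.71 and 9.69 in the controls (difference 0.10, limma adjusted p = 0.845). Without DOX replicate 2 the difference was 0.37 (limma adjusted p = 0.105). These arrays thus showed no fall of Erbb3 RNA in either fit. Directions below follow the arrays as labelled. Of 8 epithelial markers 5 had control means above the median level of all genes, 5.92, namely Epcam, Cdh1, the luminal keratins Krt8 and Krt18 and the basal keratin Krt14. The basal markers Krt5, Trp63 and Acta2 lay below it.

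The replication genes were lower in the DOX organoids as a group. They were chosen with earlier results of these data known, so the shares of all genes below describe the list and do not test it. With all 6 arrays 25 of the 52 fell at an adjusted p under 0.05 (limma, adjusted over all genes), against 2.26% of all genes, and the other 27 did not pass. None was higher after adjustment, beside 0.12% of all genes. None was higher at an unadjusted p under 0.05 either, beside 630 of all 19937 genes. The median log2 difference, DOX minus control, was −1.41 for the 52 genes and 0.02 for all genes. Every DOX array lay below every control array for 49 of the 52, against 20.3% of all genes. The 3 exceptions were Gins3, Fen1 and Rad51ap1. The 20.3% is not matched for level: the median control level was 7.68 for the 52 genes and 5.93 for all genes. Bright genes read low on DOX replicate 2, so that share is a loose comparison.

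Without DOX replicate 2, 47 of the 52 fell and 0 rose, against 14.3% of all genes lower and 12.3% higher. At an unadjusted p under 0.05, 0 of the 52 rose in that fit, beside 3609 of all 19937 genes. The median difference was −1.22 for the 52 genes and 0.01 for all. All 25 genes called with 6 arrays were among the 47. Gmnn, Gins3, Fen1, Rpa1 and E2f2 did not pass in that fit, which rests on 2 DOX arrays. In it 36 of the 52 genes were at least 2-fold lower and 11 at least 4-fold lower. The count of 25 changed with each array left out: 16 genes passed without DOX replicate 1, 11 without DOX replicate 3, and 7, 6 and 5 without control replicate 1, 2 or 3. Ccna2, Mcm3, Mcm6, Rrm2 and Uhrf1 kept their call in all 16 alternative settings tried. In these bulk samples fewer dividing cells and less RNA per dividing cell cannot be told apart.

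**Figure D1:**
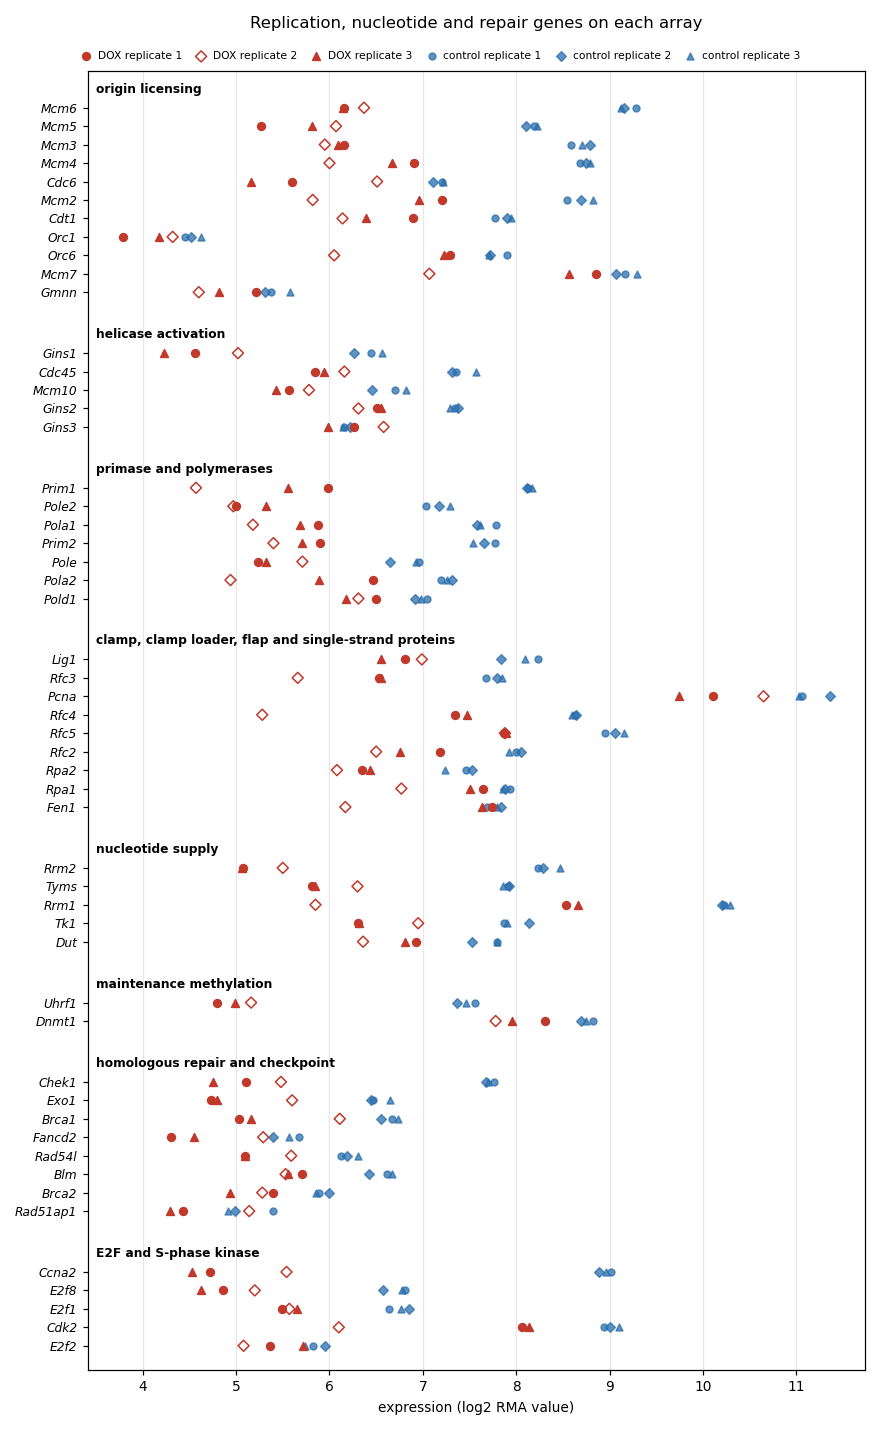
Log2 RMA value of each of the 52 genes (rows, by role and then by size of difference) on the 3 DOX arrays (red, replicate 2 as open diamonds) and the 3 control arrays (blue). The DOX points lie left of the control points in all rows but Gins3, Fen1 and Rad51ap1, and the open diamonds often stand away from the other DOX points.

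The compression of DOX replicate 2 was set against the genes at the same control level. All genes were split by control mean into 10 equal steps, and on DOX replicate 2 the median difference from the control mean was 0.84 in the lowest step and −1.59 in the highest, while it lay between −0.06 and 0.04 on DOX replicate 1 and between −0.12 and 0.14 on DOX replicate 3. On DOX replicate 2, 45 of the 52 genes were below the median of their own step, and the median distance of all 52 from it was −0.71. On DOX replicate 1 it was 51 of 52 and on DOX replicate 3 all 52, with medians of −1.25 and −1.27. Pcna, Gins3, Dnmt1, Rfc5, Cdc6, Pold1 and Tk1 lay above their step on DOX replicate 2. DOX replicates 1 and 3 differed from each other by a median of 0.19 over the 52 genes, and by less than 0.5 for 49 of them.

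**Figure D2:**
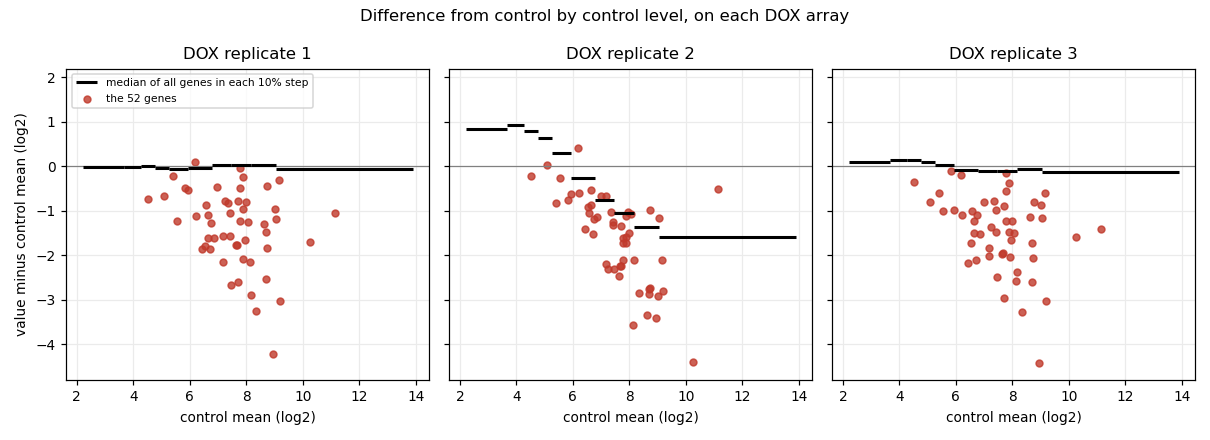
Difference from the control mean (log2) against control mean for the 52 genes (red points) on each DOX array, with the median of all genes in each 10% step of control level (black bars). The bars are flat on DOX replicates 1 and 3 and slope from 0.84 to −1.59 on DOX replicate 2, where 45 of the 52 points lie below the bar of their step.

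Promoter sequences are shown for 4 genes that fell, because E2F sites near the start are the textbook feature of this gene class: they are the called genes with the largest differences in 4 separate role groups that have an entry in the RefSeq promoter table (GRCm38.p6, C57BL/6J). Each line holds the 250 bases before the annotated start, 5′ to 3′ on the strand of the gene. Rrm2 is at chr12:24708004-24708253 (plus strand), Mcm6 at chr1:128359706-128359955 (minus strand), Prim1 at chr10:128014965-128015214 (plus strand) and Chek1 at chr9:36726659-36726908 (minus strand). Capitals mark the E2F core and the CCAAT box on either strand. The core was searched as TTCCCGC, as its sister form TTGGCGC, as the mixed form TTCGCGC and as the other mixed form TTGCCGC. Overlapping matches were all counted.
Rrm2: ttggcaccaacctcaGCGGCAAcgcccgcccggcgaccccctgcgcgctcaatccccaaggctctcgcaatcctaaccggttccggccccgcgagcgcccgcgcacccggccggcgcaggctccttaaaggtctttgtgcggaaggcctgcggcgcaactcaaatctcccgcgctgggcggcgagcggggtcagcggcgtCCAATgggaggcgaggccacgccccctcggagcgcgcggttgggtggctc
Mcm6: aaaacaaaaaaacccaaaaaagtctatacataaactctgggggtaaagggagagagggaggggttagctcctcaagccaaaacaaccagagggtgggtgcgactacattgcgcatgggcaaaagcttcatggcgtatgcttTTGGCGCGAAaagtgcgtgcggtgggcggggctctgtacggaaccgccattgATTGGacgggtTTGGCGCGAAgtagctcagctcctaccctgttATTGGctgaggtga
Prim1: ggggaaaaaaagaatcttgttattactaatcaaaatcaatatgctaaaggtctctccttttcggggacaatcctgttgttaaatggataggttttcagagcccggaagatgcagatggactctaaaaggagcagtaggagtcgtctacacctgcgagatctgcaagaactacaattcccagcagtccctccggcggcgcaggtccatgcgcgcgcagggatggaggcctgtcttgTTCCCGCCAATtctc
Chek1: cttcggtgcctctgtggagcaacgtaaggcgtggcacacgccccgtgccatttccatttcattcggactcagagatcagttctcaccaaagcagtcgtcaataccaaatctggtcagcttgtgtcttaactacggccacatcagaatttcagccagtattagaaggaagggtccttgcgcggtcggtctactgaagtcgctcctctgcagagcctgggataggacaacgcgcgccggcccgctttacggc

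The Mcm6 window holds the E2F core at 2 places, at −109 to −100 and −46 to −37 from the start, where the form TTGGCGC and, on the reverse strand, the form TTCGCGC overlap, and 2 CCAAT boxes on the reverse strand. In Prim1 the E2F core TTCCCGC at −15 to −9 shares its last base with a CCAAT box. Rrm2 has a far core at −235 to −229 and a CCAAT box at −50 to −46, and no match was found in the Chek1 window. Of the 52 genes 42 had a promoter entry, and 19 of these (45.2%) held at least 1 E2F core, against 9.01% of 27025 genes in the table and 34.2% of 114 further replication and repair genes described below. CCAAT was present in 64.3% of the 42, 37.5% of all genes and 48.2% of the 114. The CHR element, searched as TTTGAA on either strand and not marked in capitals, was in 16.7% of the 42, 18.3% of all genes and 11.4% of the 114. The median difference was −1.52 in the 19 genes with a core and −1.22 in the 23 without one with all arrays, and −1.23 and −1.22 without DOX replicate 2, and was not tested. These matches are descriptions of letters, not of binding.

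Of 11 origin licensing genes 5 fell with all arrays and 10 without DOX replicate 2, and all 11 had DOX arrays wholly below controls. All DOX arrays lay below all controls for 20.3% of all genes, a share not matched for control level. The counts here and in the role groups below stand beside 2.26% of all genes lower with all arrays and 14.3% without DOX replicate 2. The MCM ring, the core of the replicative helicase, held the largest differences of the group. Mcm6 read 6.16, 6.37 and 6.15 in DOX replicates 1, 2 and 3, against 9.28, 9.15 and 9.12 in the controls, a difference of −2.96 (SE 0.17, limma adjusted p = 0.00155). Mcm3 stood at 6.16, 5.95 and 6.09 in DOX organoids and at 8.59, 8.79 and 8.70 in controls (−2.63, SE 0.17, limma adjusted p = 0.00199). In both genes the 3 DOX arrays lay close together, DOX replicate 2 included, and far below the controls. Distances from the median of the same step of control level were smaller on DOX replicate 2. They were −2.96, −1.22 and −2.92 for Mcm6 and −2.55, −1.39 and −2.54 for Mcm3 in DOX replicates 1, 2 and 3.

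For Mcm5 the DOX values were 5.27, 6.07 and 5.81 and the control values 8.19, 8.11 and 8.22 (−2.46, SE 0.24). Mcm4 had 6.91, 6.00 and 6.67 with DOX, against 8.68, 8.75 and 8.79 without (−2.22, SE 0.27). Both fell with all arrays (limma adjusted p = 0.00588 and 0.0107). Mcm2, at 7.21, 5.82 and 6.96 in DOX arrays against 8.54, 8.69 and 8.82 in controls, differed by −2.02 and just missed the threshold (limma adjusted p = 0.0511). It passed without DOX replicate 2 (−1.60, limma adjusted p = 6.85e-06).

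Mcm7 was the ring subunit with the smallest difference. Its DOX arrays read 8.86, 7.07 and 8.57, against 9.17, 9.07 and 9.29 in controls, so that DOX replicate 2 carried most of the difference of −1.01 (limma adjusted p = 0.40). Without that array it fell by 0.46 (limma adjusted p = 0.0228), while Mcm2 to Mcm6 spanned −3.03 to −1.60 in the same fit. A difference between Mcm7 and its partners was not tested.

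Among the loaders, Cdc6, the ATPase that helps place the ring, read 5.60, 6.51 and 5.16 in DOX arrays against 7.21, 7.11 and 7.22 in controls. Its difference of −1.42 did not pass with all arrays (limma adjusted p = 0.122), and it fell without DOX replicate 2 (−1.80, limma adjusted p = 5.01e-06). Cdt1, its partner in loading, fell in both fits, by 1.40 with all arrays (limma adjusted p = 0.0395) and by 1.23 in the smaller fit. Geminin (Gmnn), the inhibitor of Cdt1, differed by −0.55 and −0.41 (limma adjusted p = 0.338 and 0.0564). Orc1, the largest origin recognition subunit, had the smallest difference of the group with all arrays and also a low level, with 3.79, 4.32 and 4.17 in DOX arrays against 4.45, 4.52 and 4.62 in controls (−0.44, limma adjusted p = 0.402). It fell by 0.55 without DOX replicate 2 (limma adjusted p = 0.0109), where Gmnn had the smallest difference. RMA has no detection call, and a difference near the lower end of the scale can be understated. This applies also to other genes below whose DOX values lie under the median level of all genes. Among them are Ccna2, Rrm2, Uhrf1, Gins1, E2f8, Pole2, Chek1, Pole and E2f1. Orc6, another origin subunit, differed by −0.92 with all arrays and fell by 0.52 without DOX replicate 2 (limma adjusted p = 0.32 and 0.00685).

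Of the 5 helicase activation genes 3 fell with all arrays and 4 without DOX replicate 2. Gins1, a subunit of the 4-part GINS complex, read 4.56, 5.02 and 4.23 in DOX arrays against 6.44, 6.26 and 6.56 in controls (−1.81, SE 0.25, limma adjusted p = 0.0178). Cdc45 fell by 1.43 and Mcm10, which helps to start the activated helicase, by 1.06 (SE 0.18 and 0.20, limma adjusted p = 0.0142 and 0.0494). Gins2 differed by −0.88 (limma adjusted p = 0.0562) and fell by 0.81 in the 5 other arrays.

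Gins3, another GINS subunit, did not pass in either fit. It had 6.26, 6.58 and 5.98 in DOX arrays, against 6.16, 6.22 and 6.14 in controls, and the groups overlapped. With all arrays the difference was 0.10 (95% confidence interval −0.40 to 0.60, limma adjusted p = 0.792), and leaving out DOX replicate 2 gave −0.05. It is the only one of the 52 genes with a positive difference, and its sign turned negative also with each array centred on its median (−0.10). Gins4, the remaining subunit and not one of the 52, differed by −1.05 with all arrays and fell by 0.45 without DOX replicate 2 (limma adjusted p = 0.406 and 0.0129). Differences between the GINS subunits were not tested.

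Of 7 primase and polymerase genes 5 fell with all arrays and 7 without DOX replicate 2. Prim1, the catalytic primase subunit that lays down RNA primers, read 5.98, 4.57 and 5.56 in DOX arrays against 8.13, 8.12 and 8.17 in controls (−2.77, SE 0.36, limma adjusted p = 0.0153). Its partners in the primase complex, Pola1, the catalytic subunit of polymerase alpha, and Prim2, also fell (−2.07 and −1.99, limma adjusted p = 0.00891 and 0.00633). The fourth subunit, Pola2, differed by −1.49 (limma adjusted p = 0.142) and fell by 1.08 without DOX replicate 2, on which it read 4.94 against 6.47 and 5.89 on the other DOX arrays.

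Of polymerase epsilon, which copies mainly the leading strand, Pole2 fell by 2.07 and the catalytic subunit Pole by 1.43 (limma adjusted p = 0.00439 and 0.0217). Its accessory subunit genes Pole3 and Pole4, not among the 52, did not pass with all arrays (−0.53 and −0.22). Without DOX replicate 2 Pole3 fell by 0.45 (limma adjusted p = 0.0265) and Pole4 did not pass (0.11). Pold1, the catalytic subunit of polymerase delta, which copies mainly the lagging strand, had the smallest difference of the 7, with 6.50, 6.31 and 6.18 in DOX arrays against 7.04, 6.92 and 6.98 in controls. Its groups did not overlap, yet the difference of −0.65 passed only without DOX replicate 2 (limma adjusted p = 0.163 and 0.00356).

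**Figure D3:**
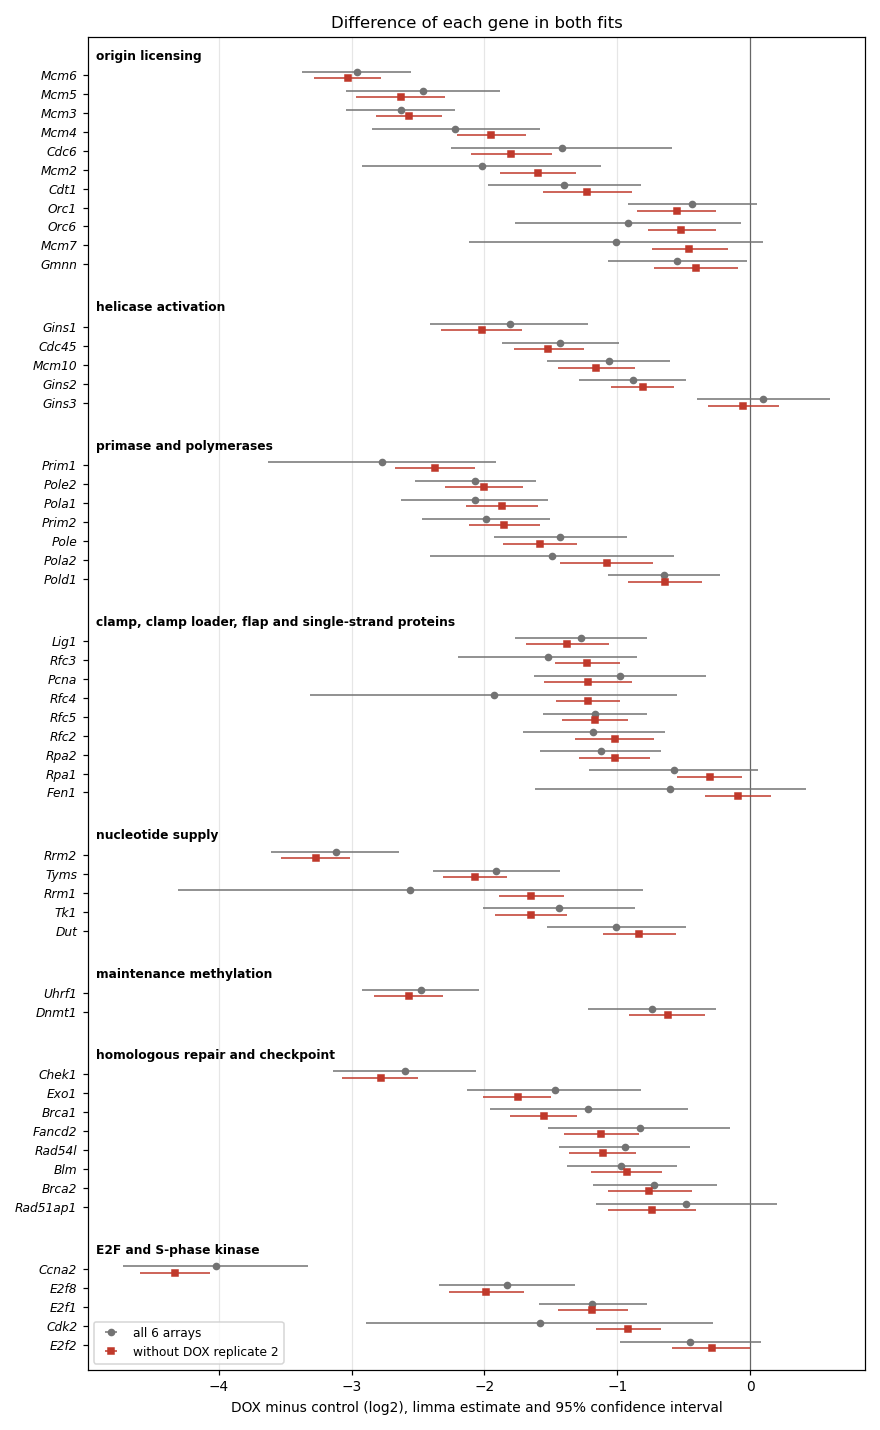
DOX minus control (log2) with 95% confidence intervals from limma for each of the 52 genes, with all 6 arrays (grey circles) and without DOX replicate 2 (red squares). The intervals are narrower without that array, all squares lie at or left of 0, from −4.33 for Ccna2 to −0.05 for Gins3, and the grey interval of Rrm1 spans −4.31 to −0.81.

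The clamp, clamp loader, flap and single-strand protein genes fell in 3 of 9 cases with all arrays and in 7 without DOX replicate 2. Pcna, the sliding clamp, read 10.11, 10.65 and 9.74 in DOX arrays against 11.06, 11.36 and 11.03 in controls (−0.98, limma adjusted p = 0.172), and it fell by 1.22 without DOX replicate 2 (limma adjusted p = 1.40e-04). Its second probe set gave 9.81, 7.81 and 9.54 in DOX arrays against 10.30, 10.21 and 10.26 in controls, with the same direction in both fits (−1.20 and −0.58). The 2 probe sets disagreed on DOX replicate 2, which was the highest DOX array on one and the lowest on the other.

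The clamp loader subunits Rfc2 to Rfc5 all fell without DOX replicate 2, within a narrow span of −1.23 to −1.02. With all arrays Rfc5 alone passed (−1.17, SE 0.16, limma adjusted p = 0.0189), with 7.87, 7.88 and 7.89 in DOX arrays against 8.95, 9.06 and 9.15 in controls. Its distance from the median of its step of control level was 0.19 on DOX replicate 2. On DOX replicates 1 and 3 that distance was −1.20 and −1.09. The call of Rfc5 was lost in 10 of the 16 alternative settings. Rfc4 had the largest difference of the group with all arrays, −1.93, but did not pass (limma adjusted p = 0.201). It read 7.34, 5.28 and 7.47 in DOX arrays against 8.63, 8.64 and 8.60 in controls, with DOX replicate 2 far below the other DOX arrays. Without that array Rfc4 fell by 1.22 (limma adjusted p = 1.54e-05).

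On the lagging strand, Lig1, the ligase that joins Okazaki fragments, fell by 1.27 (SE 0.21, limma adjusted p = 0.032). Fen1, the nuclease that trims their flaps, read 7.74, 6.17 and 7.63 in DOX arrays against 7.69, 7.84 and 7.80 in controls. Fits with all arrays and with DOX replicate 2 left out gave −0.60 and −0.09 (limma adjusted p = 0.497 and 0.602). In the single-strand binding complex RPA, Rpa2 fell by 1.12 (limma adjusted p = 0.0382), and Rpa1, with 7.65, 6.77 and 7.51 in DOX arrays against 7.93, 7.88 and 7.86 in controls, did not pass in either fit (−0.57 and −0.30, limma adjusted p = 0.401 and 0.0679). A difference between the subunits was not tested.

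Of 5 nucleotide supply genes 3 fell with all arrays and 5 without DOX replicate 2. Rrm2, the regulated small subunit of ribonucleotide reductase, read 5.07, 5.50 and 5.06 in DOX arrays against 8.23, 8.29 and 8.47 in controls. Its difference of −3.12 (SE 0.20, limma adjusted p = 0.00199) was the second in size among the 52 genes. Rrm1, the large subunit, had 8.53, 5.85 and 8.66 in DOX arrays against 10.23, 10.20 and 10.29 in controls. Because DOX replicate 2 lay far below the other DOX arrays, its difference of −2.56 did not pass (limma adjusted p = 0.181), while without that array it fell by 1.65 (limma adjusted p = 1.63e-06).

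Tyms, which makes thymidylate, fell by 1.91 (SE 0.20, limma adjusted p = 0.00691). Tk1, the salvage thymidine kinase, fell by 1.44 (SE 0.24, limma adjusted p = 0.0344), and its second probe set, not used for the count, differed by −1.29 with all arrays and −1.86 without DOX replicate 2. Dut, the enzyme that keeps uracil out of DNA by destroying dUTP, had the smallest difference of the group, with 6.93, 6.36 and 6.81 in DOX arrays against 7.79, 7.53 and 7.79 in controls (−1.01, limma adjusted p = 0.0858).

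Uhrf1 and Dnmt1 copy DNA methylation behind the fork. Uhrf1, which finds half-methylated sites, read 4.79, 5.16 and 4.99 in DOX arrays against 7.56, 7.37 and 7.46 in controls and fell by 2.48 (SE 0.18, limma adjusted p = 0.00241). Dnmt1, the methyltransferase it recruits, had 8.31, 7.78 and 7.96 in DOX arrays against 8.82, 8.69 and 8.75 in controls. Its groups did not overlap, but −0.74 did not pass with all arrays (limma adjusted p = 0.163) and −0.62 did without DOX replicate 2 (limma adjusted p = 0.00468).

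Of 8 homologous repair and checkpoint genes 2 fell with all arrays and 8 without DOX replicate 2. Chek1, the kinase that restrains the cell cycle when forks stall, read 5.11, 5.48 and 4.75 in DOX arrays against 7.76, 7.68 and 7.70 in controls (−2.60, SE 0.23, limma adjusted p = 0.00377). Blm, a helicase that resolves recombination intermediates, fell by 0.97 (limma adjusted p = 0.0455). Brca1, an organiser of homologous repair, had 5.03, 6.11 and 5.16 in DOX arrays against 6.67, 6.55 and 6.73 in controls (−1.22, limma adjusted p = 0.138). Without DOX replicate 2, its highest DOX array, it fell by 1.55 (limma adjusted p = 3.63e-06), and the resection nuclease Exo1, just outside the threshold with all arrays (−1.47, limma adjusted p = 0.0509), fell by 1.75.

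The other repair genes were dimmer, and DOX replicate 2 was again the array nearest the controls for several. Brca2, a core factor of homologous repair, differed by −0.72 with all arrays and fell by 0.76 without DOX replicate 2. For Rad54l, a motor protein of strand exchange, the values were −0.94 and −1.11, and for Fancd2, the central crosslink repair protein, −0.83 and −1.12. Rad51ap1, an accessory factor of homologous repair, read 4.43, 5.14 and 4.29 in DOX arrays against 5.40, 4.99 and 4.91 in controls, so the groups overlapped through DOX replicate 2. It differed by −0.48 with all arrays (limma adjusted p = 0.459) and fell by 0.74 once that array was left out (limma adjusted p = 0.00391).

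Among E2F and S-phase kinase genes 3 of 5 fell with all arrays and 4 without DOX replicate 2. Ccna2, cyclin A2, which drives S phase as the partner of Cdk2, had the largest difference of all 52 genes. It read 4.72, 5.54 and 4.53 in DOX arrays and 9.02, 8.89 and 8.96 in controls, and fell by 4.02 with all arrays (SE 0.29, limma adjusted p = 0.00223). With DOX replicate 2 left out the difference was −4.33. Its kinase Cdk2 had 8.06, 6.10 and 8.14 in DOX arrays against 8.94, 9.01 and 9.10 in controls. That difference of −1.58 did not pass (limma adjusted p = 0.268), and Cdk2 fell by 0.92 without DOX replicate 2 (limma adjusted p = 1.52e-04).

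The activator E2f1 read 5.49, 5.57 and 5.65 in DOX arrays against 6.64, 6.85 and 6.77 in controls, and fell by 1.19 in both fits (SE 0.17 with all arrays, limma adjusted p = 0.020). E2f8, a repressor of the family that is itself an E2F target, fell by 1.83 (SE 0.21, limma adjusted p = 0.00989). E2f2, a second activator, gave 5.36, 5.08 and 5.72 in DOX arrays against 5.82, 5.95 and 5.74 in controls, so that the groups nearly touched. It did not pass in either fit (−0.45 and −0.29, limma adjusted p = 0.415 and 0.141).

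Of the other genes of the same pathways 138 were measured of 146 listed. Among them 16 were lower and 0 higher with all arrays in limma, with a median difference of −0.63. At an unadjusted p under 0.05, 1 was higher, beside 630 of all 19937 genes. Without DOX replicate 2, 67 were lower and 13 higher, with a median of −0.34. The counts are to be read against the shares of all genes given above, 2.26% and 0.12% with all arrays and 14.3% and 12.3% without DOX replicate 2.

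Of 36 further replication genes, 5 fell with all arrays, and 26 fell and 1 rose without DOX replicate 2. Dtl, the ligase receptor that marks Cdt1 for destruction, read 4.78, 5.90 and 4.84 in DOX arrays against 7.43, 7.32 and 7.16 in controls (−2.13, limma adjusted p = 0.0276). Falls were also called for the fork proteins Wdhd1 (−1.29), Timeless (−1.26) and Dna2 (−1.27), with limma adjusted p = 0.0207, 0.0155 and 0.0183. Of 33 further genes of homologous and crosslink repair, 5 fell with all arrays, and 12 fell and 2 rose without DOX replicate 2. They include Brip1, a helicase that binds Brca1 (−1.61), Fancb (−1.30), and both partners of the fork repair pair Mms22l and Tonsl (−1.40 and −1.18), with limma adjusted p = 0.0375, 0.020, 0.018 and 0.0297.

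In further nucleotide supply genes, 3 of 20 fell with all arrays, and 9 fell and 2 rose without DOX replicate 2. The 3 were Dctd, a deoxycytidylate deaminase (−1.41), the salvage kinase Dck (−1.55) and Samhd1 (−1.38), which does the reverse of the list's name and breaks deoxynucleotides down (limma adjusted p = 0.0112, 0.0407 and 0.0413). Among 17 further E2F and pocket protein genes, Rbl1, a pocket protein that binds E2F (−1.33), and Myb (−0.91) fell with all arrays (limma adjusted p = 0.0324 and 0.0444), and 7 fell and 3 rose without DOX replicate 2. Of 5 mismatch repair genes none passed with all arrays in limma. At an unadjusted p under 0.05, 3 were lower, beside 2165 of all 19937 genes. In the 5 other arrays 3 fell, among them Pms1 and Pms2 (−0.62 and −0.58).

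Of 27 genes of end joining and of base and nucleotide excision repair, Lig3 fell with all arrays (−1.60, limma adjusted p = 0.049), and without DOX replicate 2, 10 fell and 5 rose, beside 14.3% of all genes lower and 12.3% higher. Besides Lig3, those that fell were the end joining genes Xrcc5, Xrcc6 and Nhej1, the base excision genes Ung, Apex1, Parp1 and Mpg, and the nuclease subunits Ercc1 and Ercc4, from −1.13 for Ercc1 to −0.37 for Ercc4. These names and those of the 5 that rose were chosen after their values were seen. The 5 were Prkdc, the catalytic subunit of the end joining kinase (1.05), the damage sensors Xpc (0.77) and Ddb2 (0.77), Xpa (0.78) and Lig4 (0.51). Of these only Xpc had DOX arrays wholly above controls when DOX replicate 2 was included, at 8.15, 7.56 and 7.91 against 7.25, 7.14 and 7.39. In the separate list of further nucleotide supply genes, those that rose without DOX replicate 2 were Ctps and Rrm2b, the small reductase subunit used outside S phase. They rose by 0.70 and 0.42 (limma adjusted p = 0.00144 and 0.0186), but differed by 0.25 and 0.01 with all arrays. These names too were chosen after their values were seen.

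**Figure D4:**
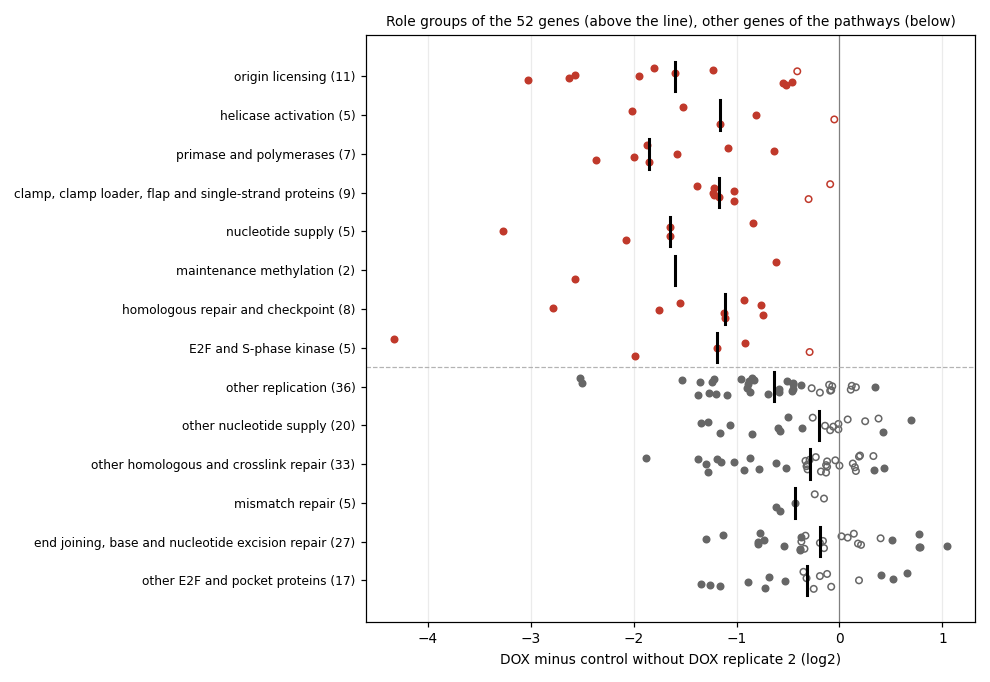
DOX minus control (log2) without DOX replicate 2 for each gene of the 8 role groups (red) and of 6 lists of other genes of the same pathways (grey), with the number measured in brackets. Filled points passed limma at an adjusted p under 0.05 and open points did not. The bars are medians, which lie between −1.85 and −1.11 in the role groups and between −0.64 and −0.19 in the other lists. All these lists were chosen with earlier results of these data known, and the medians were not compared in a test.

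No marker of leukocytes, fibroblasts, endothelium or fat cells was called lower in either fit. The summed linear signal of 6 leukocyte markers was 8.81, 8.56 and 8.87 (log2 of the sum) in DOX arrays and 8.14, 8.19 and 8.26 in controls. Without DOX replicate 2 Ptprc and Cd68 rose (0.38 and 1.01), beside 12.3% of all genes higher. The other 4, Adgre1, Cd3e, Cd79a and Csf1r, did not pass in that fit (−0.22, 0.08, −0.05 and −0.08). Cd68, at 8.32, 6.72 and 8.29 in DOX arrays against 7.25, 7.19 and 7.43 in controls, was the only one of the 6 with a control mean above the median level of all genes. For 6 fibroblast markers the sums were 7.91, 8.88 and 8.12 in DOX arrays against 8.05, 8.14 and 7.97 in controls. None of the fibroblast, endothelial or adipocyte markers, 14 in all, passed in either fit of limma, nor at an unadjusted p under 0.05. At that unadjusted p, 2165 of all 19937 genes were lower and 630 higher with all arrays. Without DOX replicate 2, 3762 were lower and 3609 higher. The 8 epithelial markers summed to 13.49, 12.96 and 13.54 in DOX arrays, below the control sums of 14.04, 14.07 and 14.06. Krt8, Krt18 and Krt14 fell without DOX replicate 2 (−0.74, −0.64 and −1.06), beside 14.3% of all genes lower. The other 5, Epcam, Cdh1, Krt5, Trp63 and Acta2, did not pass in that fit (−0.28, −0.07, −0.06, 0.16 and −0.23). None of the 8 passed with all arrays. The part of any of these shifts in the replication result was not tested.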

How the data were processed

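RNA of 6 organoid cultures was measured on 1-colour Affymetrix mouse arrays. As deposited by the authors, each probe set has a log2 value, made per the submitters' processing notes with RMA and the affy package (versions not given in the sources used here). Of 34760 probe sets, 21640 carried 1 gene symbol in the platform annotation, 1321 several and 11799 none here. The first kind gave 19937 genes. Groups and replicate numbers come from the sample titles.

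DOX was compared with control in limma 3.58.1 in R 4.3.3 (lmFit, eBayes, two-sided tests, no covariate) on the whole table, with Benjamini-Hochberg adjustment over all genes and a threshold of 0.05. The fit was tested on simulated data with independent noise, in which each gene had the same spread on all arrays. No array compressed like DOX replicate 2 was simulated, so the simulation does not cover that feature. The 52 genes, the role groups, the 146 other genes and the motif letters were chosen with earlier results of these data known. Per-array values are given for the largest and smallest difference of each role group, for members against the group's direction, and for Pcna, Mcm2 to Mcm7, Rrm2, Ccna2, E2f1, Brca1 and Cdc6, and for further genes where DOX replicate 2 stood apart. Of the other genes, up to 4 called per list are named. Promoters come from RefSeq (GRCm38.p6), and Ccna2 has no entry there. Some of the 146 are not reported here. Cyclic loess was an alternative chosen after seeing the data.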

Additional observations from a re-analysis of the deposited data

How the results depend on the processing

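No member was called higher under any of the 16 alternatives, and 51 of the 52 members stayed negative in all those that tested them. The replicate block, the variance setting, the other thresholds and the filters that left out dim genes keep each difference as it is. They therefore say nothing about its sign, and members that a filter left out, such as Orc1, were not tested in it. The exception, Gins3 (0.10), was −0.05 to 0.25 when 1 array was left out (−0.05 without DOX replicate 2) and −0.10 with each array centred on its median. Of the 25 members called, 5 kept their call in every alternative. Deviations of same-numbered arrays had weak positive correlations across genes (0.117, 0.194 and 0.0852). The labels state no pairing, so the numbers were not treated as pairs in the main fit. With the replicate block, 13 members, 159 genes lower and 3 higher and 0 of the other pathway genes passed. A threshold of 0.01 gave 12 members, 165 lower and 3 higher genes and 0 other pathway genes lower, and 0.10 gave 73 higher genes and 27 other pathway genes lower. A second quantile normalization gave 185 genes higher, a member median of −1.27, and 28 lower and 1 higher other pathway genes. Centring on the median gave 7 genes higher and a member median of −1.61. Cyclic loess gave 38 members, 1197 lower and 557 higher genes, a member median of −1.19, and 40 lower and 2 higher other pathway genes. The share of higher calls thus moved with the scaling, while no member was called higher. Leaving out 1 array at a time gave 5 to 47 members lower, 61 to 2855 genes lower and 2 to 2454 higher, 0 to 67 other pathway genes lower and 0 to 13 higher, and a member median of −1.39 to −1.22. The highest of the counts were without DOX replicate 2. The cause of these changes was not tested. RMA gives no detection calls, which limits what can be said of dim members such as Orc1.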
